A study of Mus musculus with 4 samples.

Results

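The interferon response and MHC class I genes described here are 51 genes listed by name and function, of which 40 were in the count table of 12067 genes. They comprise interferon receptors, transcription factors of the response, nucleic acid sensors, oligoadenylate synthetases (OAS), other antiviral effectors, ubiquitin-like and ADP-ribosylation enzymes, interferon-inducible GTPases, and genes of MHC class I antigen presentation. The table did not list the other 11, which were Zbp1, Ifi204, Oas3, Oasl2, Ifit1, Ifit3, Mx1, Ifi27l2a, Xaf1, Usp18 and Gbp2, so no value is given for them here.

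Interferons are cytokines that bind receptors at the cell surface and activate the JAK kinases and STAT transcription factors. Type I interferon signals through Ifnar1 and Ifnar2 to a complex that holds Stat2 and Irf9, which binds the interferon-stimulated response element (ISRE) of target promoters. Type II interferon signals through Ifngr1 to genes that carry gamma-activated sites (GAS). The induced genes block virus replication and raise the display of peptides on MHC class I. In the bone marrow, interferon is also known to affect the cycling of haematopoietic stem and progenitor cells.

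Expression was measured by Quant-seq, which sequences the 3′ ends of polyadenylated transcripts, in KL cells of the mouse. KL cells are myeloid progenitors of the bone marrow, gated as Lin- cKit+ Sca-1-, and here they were donor-derived (CD45.2+) cells sorted from transplant recipients. There were 2 libraries from BcorΔE9-10 cells (genotype scl-Cre-ERT +; Bcorfl/y) and 2 from BcorWT cells (genotype Bcorfl/y). Bcor encodes a corepressor of the variant Polycomb repressive complex PRC1.1, and both groups carried the floxed allele, in which loxP sites flank exons 9 and 10. Per the study's methods, Cre excision leaves a frameshift, the Cre was driven in haematopoietic stem cells, tamoxifen (5 mg) was given at 3 to 6 months of age to both genotypes, donors for molecular work were male, and recipients were Ptprca mice irradiated with 5.5 Gy. The series' design text gives whole marrow as the graft and 20 weeks as the time of sorting. Only BcorΔE9-10 cells carried Cre, so that the presence of Cre and the loss of the exons cannot be told apart. The sources do not say which donors or recipients the 2 libraries of a group came from, and p-values then measure only the spread between these libraries.

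The libraries held between 3825289.5 and 6253100.5 counts. The targeted gene, Bcor, had 104 and 113 counts in BcorΔE9-10 and 58 and 79 in BcorWT. These counts are not scaled for depth, which was lowest in BcorWT replicate 1. Counting at the 3′ end does not read the deleted exons and is therefore no check of the labels. Of 12 markers of myeloid progenitors all were in the table, with a summed level between 8508 and 11451 CPM, the standard unit of counts scaled to a common library size. The 10 neutrophil markers summed higher, to between 63394 and 155185 CPM. The BcorWT replicate 2 library stood apart, with 1.435% of its counts on the rRNA-related transcript Gm42418 against 14.31 to 27.88% in the other libraries. Levels below are CPM scaled by TMM factors, and differences are log2 fold changes of BcorΔE9-10 minus BcorWT from edgeR's quasi-likelihood test with their standard error (SE).

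To show which regulatory sequence the genes share, promoter windows of 300 bases (250 before to 50 after the RefSeq start, GRCm38) were searched for the ISRE core, which is TTTC, any 2 bases, then TTTC, on either strand. On the opposite strand it reads as GAAA, any 2 bases, then GAAA. Of the 40 genes, 33 had a window, and 15 of these (45.5%) held the core, against 316 of the 8396 genes in the table that had a window (3.76%) and 1131 of 32851 windows in all (3.44%). The GAS pattern TTCNNNGAA, which reads the same on both strands and may share bases with an ISRE match, was in 11 of the 33 (33.3%), against 704 of the 8396 genes (8.38%). Both patterns were in the windows of Oas1a, Bst2, Gbp7 and Igtp. Isg15, the textbook ISRE gene, is shown first below, followed by Oas1a, Oas1g and Bst2 with the lowest log2 fold changes among genes with a core, Trim30a with the highest, and Gbp3 and B2m as examples of a GTPase and of antigen presentation. Each piece is 60 bases long and is written 5′ to 3′ along its gene, with the tetramers of the ISRE core in capitals.
Isg15: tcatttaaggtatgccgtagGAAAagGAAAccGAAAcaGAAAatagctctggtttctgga
Oas1a: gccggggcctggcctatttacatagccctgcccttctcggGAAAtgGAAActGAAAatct
Oas1g: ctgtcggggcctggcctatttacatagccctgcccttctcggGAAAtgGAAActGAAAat
Bst2: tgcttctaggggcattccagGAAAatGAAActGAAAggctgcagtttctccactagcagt
Trim30a: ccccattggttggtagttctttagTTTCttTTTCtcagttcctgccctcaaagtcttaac
Gbp3: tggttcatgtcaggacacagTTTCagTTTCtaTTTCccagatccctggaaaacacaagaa
B2m: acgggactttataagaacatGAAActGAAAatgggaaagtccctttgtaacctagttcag

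The sequences are from RefSeq on GRCm38, upstream of each start. The Isg15 piece lies at chr4:156200857-156200916 on the minus strand and holds 3 overlapping cores, the first beginning 78 bases before the start. The Oas1a piece (chr5:120907526-120907585, minus strand) and the Oas1g piece (chr5:120887614-120887673, minus strand) each hold 2 cores that begin within 20 bases of the start. The Bst2 piece (chr8:71537563-71537622, minus strand) also holds 2 cores, and the B2m piece (chr2:122147528-122147587, plus strand) holds 1. A match describes letters in the window and was not tested for binding.

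None of the 40 genes passed an adjusted p of 0.05 in edgeR, where 2 of 12067 genes (0.0166%) did, and none passed it with limma-voom or DESeq2. At an unadjusted p under 0.05, Oas1a and Bst2 were lower in BcorΔE9-10, which is 5% of the genes against a background of 3.07%, and none was higher against a background of 1.34%. The median log2 fold change of the 40 genes was -0.16, with 24 lower and 16 higher, and that of all genes was -0.03, with 52.3% lower. The median of the 40 was -0.01 without BcorΔE9-10 replicate 1, -0.04 without BcorWT replicate 2 and -0.26 without BcorΔE9-10 replicate 2, so that it changed with single libraries. It was -0.0067 over the 32 genes with at least 10 counts in every library. The median of all genes is given for the full fit only. Without the OAS enzymes the median of the other 37 was -0.13. In 29 genes (72.5%) the difference was smaller than 0.5 on the log2 scale, as it was in 68% of all genes. The median SE of the 40 genes was 0.46, so that for a typical member a difference of that size is within the error of 2 against 2 libraries.

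In 7 genes (17.5%) both BcorΔE9-10 libraries lay below both BcorWT libraries, against 17.1% of all genes. These were Nlrc5, Dhx58, Oas1a, Oas1g, Bst2, Ifi35 and H2-K1. In 4 genes (10%), Stat2, Irf9, Ddx58 and Trim30a, both lay above, against 16.8% of all genes. The share without overlap was close to the background in the lower direction. In the higher direction it rests on 4 genes, and its distance from the background was not tested. In whole sorted populations, fewer cells that express a gene and less RNA per cell cannot be told apart.

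**Figure D1:**
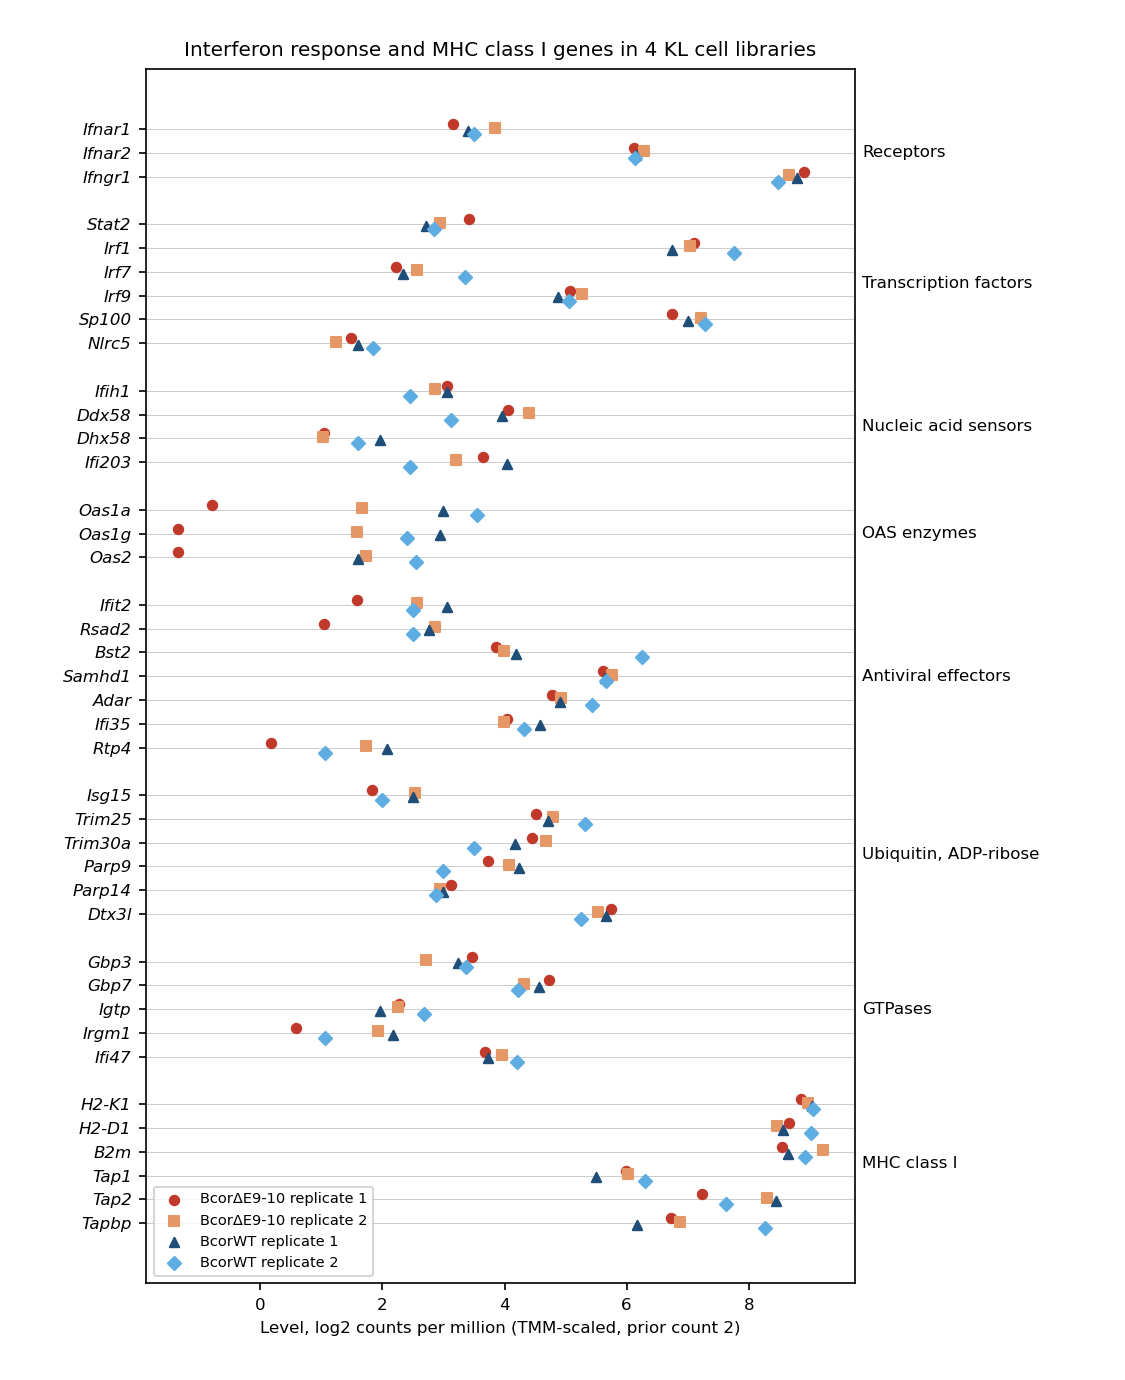
Level of each of the 40 genes in the 4 libraries, grouped by role (x axis, log2 CPM, TMM-scaled with a prior count of 2; circles and squares, BcorΔE9-10 replicates 1 and 2; triangles and diamonds, BcorWT replicates 1 and 2). Symbols of both genotypes interleave in most rows, while the 3 OAS genes have BcorΔE9-10 replicate 1 far to the left, and Bst2 and Tapbp have BcorWT replicate 2 to the right.

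No receptor differed between the genotypes by more than its SE. Ifnar1, a chain of the type I interferon receptor, had 46 and 86 counts (8.50 and 14.02 CPM) in BcorΔE9-10 and 35 and 58 counts (10.2 and 10.9 CPM) in BcorWT, a log2 fold change of 0.09 (SE 0.44, adjusted p = 0.987). The 2 BcorΔE9-10 libraries lay on either side of the BcorWT libraries. Ifnar2, the other chain, had 373 and 475 counts (68.9 and 77.4 CPM) in BcorΔE9-10, and BcorWT had 243 and 371 (71.0 and 69.8 CPM), which gave a log2 fold change of 0.06 (SE 0.30, adjusted p = 0.99). Of the 75-base windows at the 3′ ends of its transcripts, 19.4% also occur in Gm21970, a gene model that overlaps it on chromosome 16, so that its counts may be split. Ifngr1, the ligand-binding chain for type II interferon, was counted more deeply, with 2583 and 2474 counts (477 and 403 CPM) in BcorΔE9-10 and 1510 and 1904 counts (441 and 358 CPM) in BcorWT. Its log2 fold change was 0.14 (SE 0.33, adjusted p = 0.974), and the libraries of the 2 genotypes alternated in order.

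Among the 6 transcription factors and coactivators, 2 were without overlap in the higher direction (16.8% of all genes were) and 1 in the lower (17.1%), and none passed a test. Stat2, a factor of the type I response, had 56 and 45 counts in BcorΔE9-10 and 21 and 36 in BcorWT. Its levels of 10.35 and 7.335 CPM were above the 6.13 and 6.77 CPM of BcorWT, with a log2 fold change of 0.45 (SE 0.47, adjusted p = 0.946). Irf9, which joins Stat2 on the ISRE, was at 33.3 and 38.1 CPM against 28.9 and 32.9 CPM, so that the nearest libraries of the groups lay close together. Stat2 and Irf9 thus both had a higher mean in BcorΔE9-10, neither by more than its SE.

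Irf7, the factor that amplifies type I interferon production, had 23 and 34 counts (4.25 and 5.54 CPM) in BcorΔE9-10 and 16 and 52 counts (4.67 and 9.79 CPM) in BcorWT. Its log2 fold change was -0.58 (SE 0.57, adjusted p = 0.945) and was 0.07 without BcorWT replicate 2, the high library. Irf1, a factor induced by type II interferon, was likewise highest in that library, at 215 CPM against 106 CPM in the other BcorWT library and 137 and 131 CPM in BcorΔE9-10. Sp100, a nuclear body protein, ranged from 107 to 156 CPM with overlapping groups. Nlrc5, the transactivator of MHC class I genes, was sparse, with 13 and 12 counts against 9 and 17, and its levels of 2.40 and 1.96 CPM lay just under the 2.63 and 3.20 CPM of BcorWT (log2 fold change -0.42, SE 0.68).

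The log2 fold changes of the cytosolic RNA sensors had different signs, and none passed a test. Ddx58, which encodes RIG-I, had 88 and 127 counts (16.3 and 20.7 CPM) in BcorΔE9-10 and 52 and 44 counts (15.2 and 8.28 CPM) in BcorWT. Its libraries did not overlap, but the lower BcorΔE9-10 library was close to the higher BcorWT library, and the log2 fold change of 0.67 (SE 0.44, adjusted p = 0.945) did not pass. It was 0.28 without BcorWT replicate 2 and 1.15 without BcorWT replicate 1. Ifih1, which encodes the long-RNA sensor MDA5, was at 7.95 and 6.85 CPM against 7.885 and 5.08 CPM. Dhx58, which encodes LGP2, a regulator of both sensors, had only 9 and 10 counts (1.66 and 1.63 CPM) against 12 and 14 (3.50 and 2.64 CPM) in BcorWT, for a log2 fold change of -0.88 (SE 0.70, adjusted p = 0.945). Ifi203, of the DNA-binding PYHIN family, differed more between the BcorWT libraries, at 16.1 and 5.08 CPM, than between the genotypes.

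The OAS enzymes, which make the second messenger that activates RNase L, were the group with the largest differences and the fewest counts. The 3 that were measured lie in a cluster on chromosome 5 (GRCm38), with Oas1a at chr5:120896256-120907521, Oas1g at chr5:120876142-120887613 and Oas2 at chr5:120730333-120749853, all on the minus strand. Oas1a had 1 and 17 counts (0.185 and 2.77 CPM) in BcorΔE9-10 and 26 and 60 counts (7.59 and 11.3 CPM) in BcorWT. Its libraries did not overlap, and its log2 fold change of -2.63 (SE 0.91) had an adjusted p of 0.945. Of the 75-base windows at its 3′ end, 29.4% also occur in Oas1g, so that reads of the pair may have been assigned to either or dropped.

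Oas1g had 0 and 16 counts in BcorΔE9-10 and 25 and 26 in BcorWT. Its BcorΔE9-10 levels of 0 CPM, where a count of 0 allows up to 0.554 CPM (3 counts, covering counting error only), and 2.61 CPM lay below the BcorWT levels of 7.30 and 4.89 CPM. The log2 fold change was -2.16 (SE 1.12, adjusted p = 0.945). Oas2 had 0 and 18 counts (0 and 2.93 CPM) against 9 and 29 counts (2.63 and 5.46 CPM) in BcorWT, so that its groups overlapped, and its log2 fold change was -1.44 (SE 1.19, adjusted p = 0.945). Summed over the 3 genes, the libraries held 1 and 51 counts in BcorΔE9-10 and 60 and 115 in BcorWT.

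The 2 BcorΔE9-10 libraries also differed from each other in these genes. On log2 CPM with a prior count of 2, replicate 2 exceeded replicate 1 by 2.45 in Oas1a, 2.93 in Oas1g and 3.08 in Oas2, values that depend on the prior count because replicate 1 held 1, 0 and 0 counts and that are not on the scale of the fitted fold changes. Without BcorΔE9-10 replicate 1, the log2 fold changes were -1.77 for Oas1a, -1.21 for Oas1g and -0.48 for Oas2, and the adjusted p of Oas1a was 0.999. Without BcorΔE9-10 replicate 2 they were -5.49, -7.84 and -7.28, values set by 1 count in all. With at least 10 counts required in every library, none of the 3 could be tested.

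The gate on lineage-negative cells should leave out mature neutrophils, and whether progenitors or mature cells gave the neutrophil marker counts was not tested. Summed levels of 10 neutrophil markers were 63394 and 155185 CPM in BcorΔE9-10 and 94419 and 143549 CPM in BcorWT, lowest in the library in which OAS counts were lowest. For 10 of 11 listed markers of basophils, mast cells and eosinophils the sums were 586 and 661 CPM against 994 and 1419 CPM, in the order of the OAS sums. All 10 were lower in BcorΔE9-10, with a median log2 fold change of -1.44, 8 of them without overlap and 6 at an unadjusted p under 0.05. The 8 of 11 listed erythroid markers in the table ran the other way, at 197 and 178 CPM against 78.0 and 87.9 CPM, and all 8 were higher in BcorΔE9-10 without overlap, 4 of them at an unadjusted p under 0.05. The part of any of these marker lists in the OAS values was not tested.

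**Figure D2:**
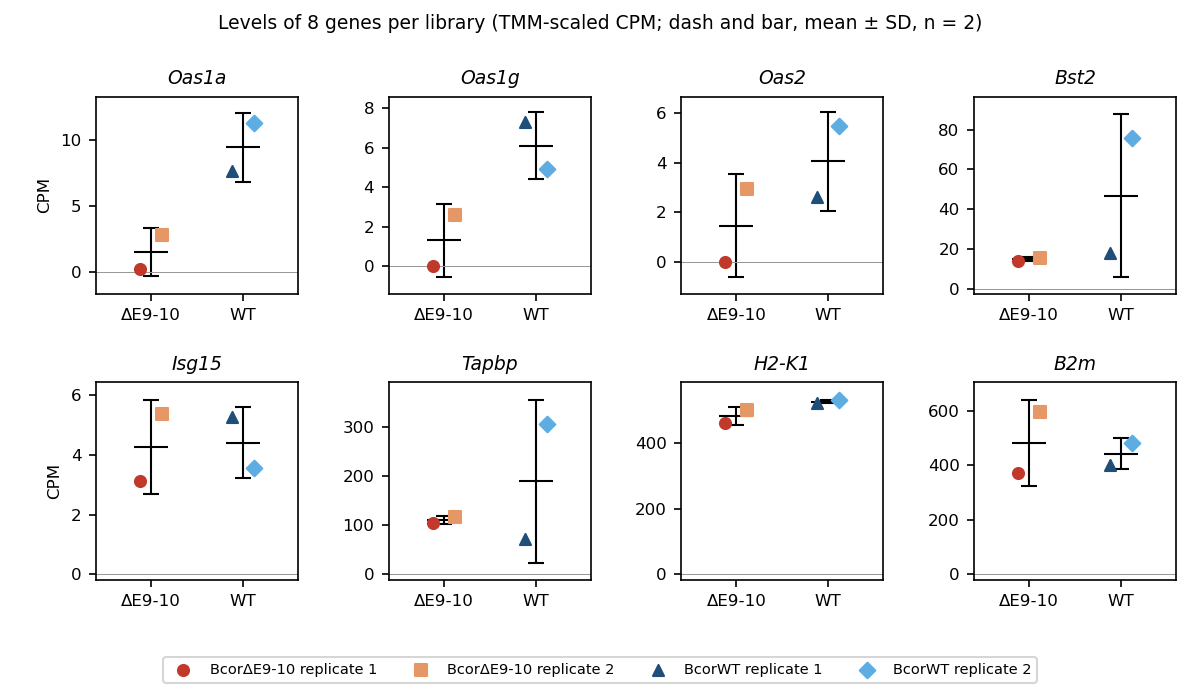
Levels of 8 genes in each library (y axis, TMM-scaled CPM on a linear scale with a line at 0; points, libraries; long dash and bar, mean ± SD, n = 2 for each genotype). The BcorΔE9-10 bars of Oas1a, Oas1g and Oas2 reach below 0, where no level can lie. The BcorΔE9-10 points of Oas1a and Oas1g lie below both BcorWT points, the difference in Bst2 and Tapbp is carried by BcorWT replicate 2, and Isg15 and B2m overlap.

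Of the 7 other antiviral effectors, 6 were lower on average in BcorΔE9-10 and 1 was higher, with a median log2 fold change of -0.45. Without BcorΔE9-10 replicate 1, Rsad2 and Rtp4 changed sign, at 0.23 and 0.12, and Ifit2 was -0.24. In that fit Bst2, Adar and Ifi35 stayed lower. Bst2, which encodes tetherin, a membrane protein that holds budding virus at the cell surface, lies at chr8:71534255-71537456 on the minus strand. It had 76 and 95 counts (14.05 and 15.5 CPM) in BcorΔE9-10 and 61 and 403 counts (17.8 and 75.8 CPM) in BcorWT, and only BcorWT replicate 2 was high. The log2 fold change was -1.67 (SE 0.61), with an adjusted p of 0.945. Without BcorWT replicate 2 it was -0.27, and without BcorWT replicate 1 it was -2.36 with an adjusted p of 0.00476. Mean levels were 14.8 ± 1.018 CPM in BcorΔE9-10 and 46.8 ± 41.0 CPM in BcorWT (SD, n = 2).

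Bst2 is also a marker of plasmacytoid dendritic cells. The 6 of 13 listed dendritic cell markers that were in the table summed to 30.7 and 36.2 CPM in BcorΔE9-10 and 35.3 and 108 CPM in BcorWT, high in the same library as Bst2. The 4 MHC class II genes among them gave 96.0 CPM in that library and between 23.7 and 29.2 CPM in the others. Other lists were also highest there, with megakaryocyte markers at 266 CPM against 108 to 141 CPM, lymphoid markers at 268 CPM against 144 to 180 CPM, and monocyte markers at 4004 CPM against 1570 to 3115 CPM, although the gate was on lineage-negative cells. Siglech and Ccr9, the markers of the plasmacytoid subset on that list, were among the 7 that the table did not hold. The part of these marker lists in the Bst2 value was not tested.

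The remaining effectors showed smaller differences. Ifit2, which binds viral RNA, was at 2.59 and 5.54 CPM against 7.885 and 5.27 CPM. Rsad2, which encodes viperin, was at 1.66 and 6.85 CPM against 6.43 and 5.27 CPM. Rtp4, a chaperone of receptors, had as few as 4 counts in a library and was at 0.739 and 2.93 CPM against 3.80 and 1.69 CPM. These 3 genes were lowest in BcorΔE9-10 replicate 1, as the OAS genes were, with overlapping groups.

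Ifi35 was at 16.1 and 15.5 CPM in BcorΔE9-10 and 23.6 and 19.6 CPM in BcorWT, a log2 fold change of -0.45 (SE 0.35, adjusted p = 0.945) between groups that did not overlap. Adar, the RNA-editing enzyme, was at 27.0 and 29.8 CPM against 29.8 and 42.9 CPM. Samhd1, which depletes nucleotides, was at 48.8 and 53.8 CPM against 49.6 and 50.2 CPM. At a log2 fold change of 0.04 (SE 0.30) it was the effector with the smallest difference.

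Isg15, a ubiquitin-like protein and among the most strongly induced of interferon targets, was low in every library. It had 17 and 33 counts (3.14 and 5.38 CPM) in BcorΔE9-10 and 18 and 19 counts (5.26 and 3.58 CPM) in BcorWT, and the log2 fold change was -0.03 (SE 0.61, adjusted p = 0.996). The groups covered the same range. Thus the gene with 3 ISRE cores in its promoter piece did not differ by more than its error. With an SE of 0.61 from 2 libraries a group, a change of about 1 on the log2 scale could have gone undetected.

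Trim30a, a tripartite motif protein that restrains innate signalling, had 116 and 155 counts (21.4 and 25.3 CPM) in BcorΔE9-10 and 60 and 58 counts (17.5 and 10.9 CPM) in BcorWT. It had the highest log2 fold change of the 40 genes, 0.73 (SE 0.39, adjusted p = 0.945), with groups that did not overlap. It was 0.41 without BcorWT replicate 2 and 1.09 without BcorWT replicate 1. Trim25, the ubiquitin ligase that acts on RIG-I, was at 22.4 and 27.2 CPM against 25.7 and 39.5 CPM. The ADP-ribosyltransferases Parp9 and Parp14 and the Parp9 partner Dtx3l overlapped between genotypes, with log2 fold changes of 0.20, 0.11 and 0.17. Parp9 and Dtx3l overlap on opposite strands of chromosome 16, and whether the counting used strand is not given in the sources used here.

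The 5 interferon-inducible GTPases, which attack the vacuoles of intracellular pathogens, were all within 0.31 of 0 on the log2 scale and all overlapped between genotypes. Their summed level was 54.9 and 48.7 CPM in BcorΔE9-10 and 52.9 and 54.0 CPM in BcorWT. Irgm1 had the lowest log2 fold change, -0.30 (SE 0.84), from 6 and 21 counts against 14 and 9, and it was 0.27 without BcorΔE9-10 replicate 1 and 0.43 without BcorWT replicate 1. Gbp7 had the highest, 0.14 (SE 0.36), from 142 and 120 counts against 80 and 97, and it was -0.09 without BcorΔE9-10 replicate 1 and -0.03 without BcorWT replicate 2. Gbp3, Igtp and Ifi47 lay between, at -0.17, -0.12 and -0.17.

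**Figure D3:**
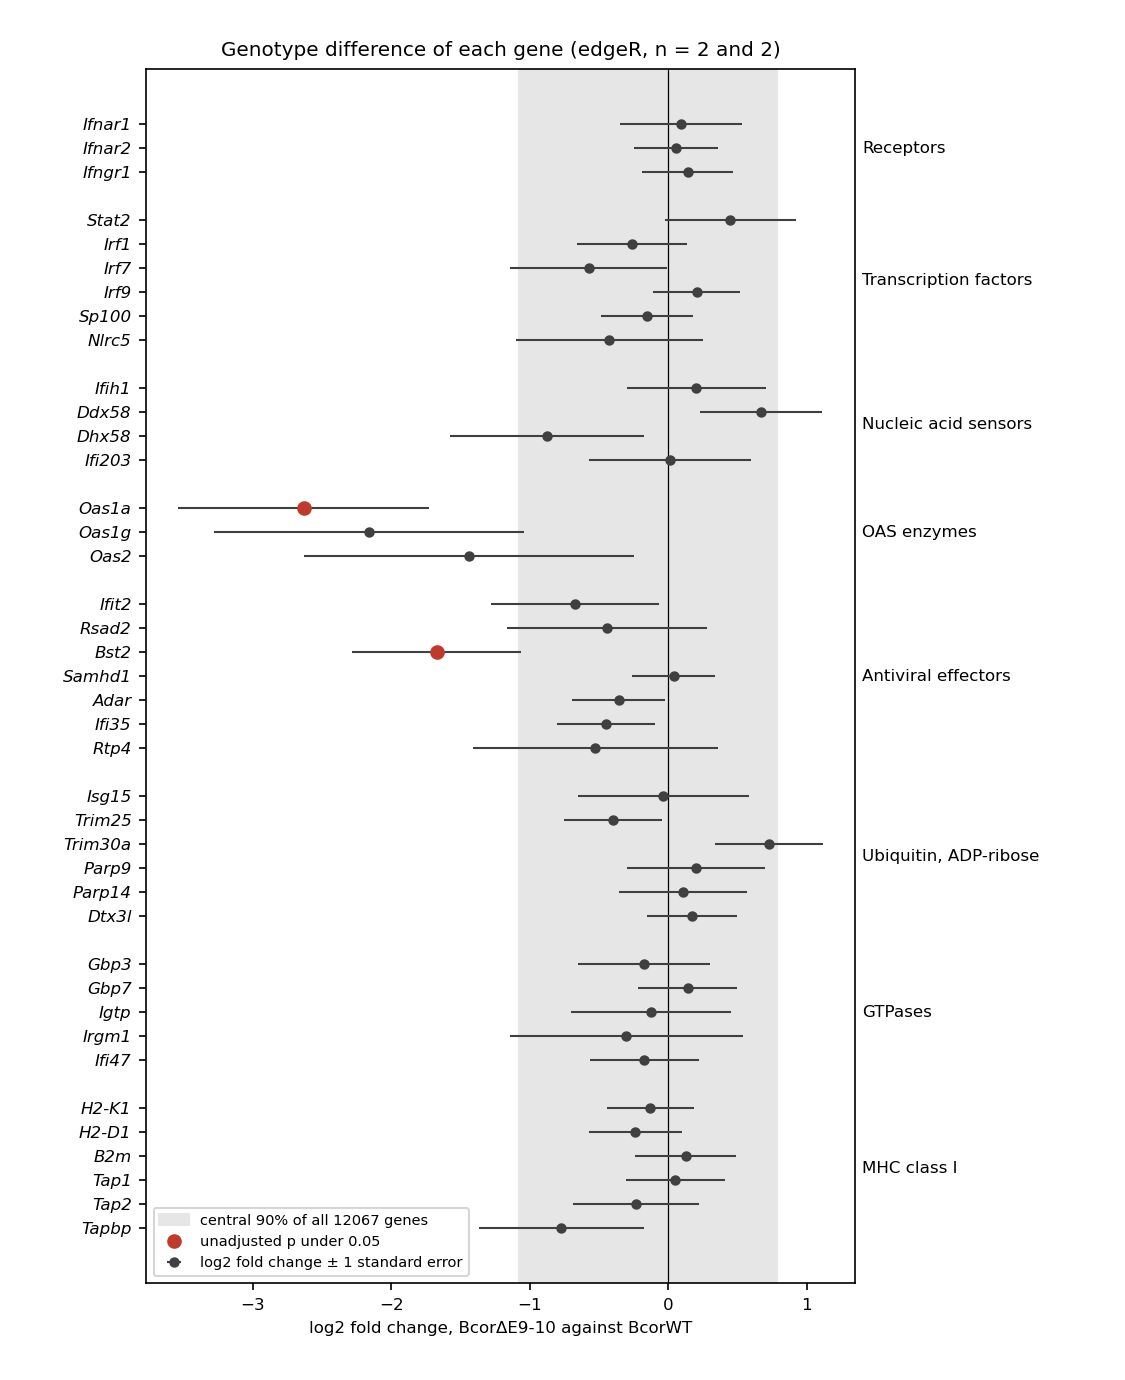
Log2 fold change of each of the 40 genes, BcorΔE9-10 minus BcorWT, with bars of 1 SE from edgeR (n = 2 libraries a genotype); the shaded band holds the central 90% of all 12067 genes, -1.08 to 0.79. Oas1a, Oas1g, Oas2 and Bst2 lie below the band, and the other 36 genes lie inside it.

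MHC class I presentation was the most deeply counted group, with 6045 to 11931 counts per library over its 6 genes. H2-K1 and H2-D1 encode the classical heavy chains and B2m the shared light chain. H2-K1 (chr17:33996017-34000347, minus strand) had 2498 and 3072 counts (462 and 501 CPM) in BcorΔE9-10 and 1789 and 2814 counts (522 and 530 CPM) in BcorWT. The groups did not overlap, but the log2 fold change was only -0.13 (SE 0.32, adjusted p = 0.974). H2-D1 (chr17:35262730-35267499, plus strand) had 2195 and 2170 counts (406 and 354 CPM) against 1288 and 2760 counts (376 and 519 CPM) in BcorWT, for a log2 fold change of -0.24 (SE 0.34, adjusted p = 0.96). Of the 3′ windows of H2-K1, 2.1% also occur in H2-D1.

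B2m (chr2:122147686-122153083, plus strand) had 2010 and 3640 counts (371 and 593 CPM) in BcorΔE9-10 and 1374 and 2565 counts (401 and 483 CPM) in BcorWT. Its BcorΔE9-10 libraries were the lowest and the highest of the 4, and the log2 fold change was 0.13 (SE 0.36, adjusted p = 0.976). The 3 chains of the class I complex thus lay within 0.25 of 0, each by less than its SE.

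Tap1 and Tap2 form the transporter that moves peptides into the endoplasmic reticulum, and tapasin, encoded by Tapbp, bridges it to the heavy chain. Tap1 had 342 and 397 counts (63.2 and 64.7 CPM) in BcorΔE9-10, between the BcorWT libraries with 154 and 415 counts (44.97 and 78.1 CPM), and a log2 fold change of 0.05 (SE 0.36, adjusted p = 0.994). Tap2 had 812 and 1938 counts (150 and 316 CPM) against 1195 and 1055 counts (349 and 199 CPM) in BcorWT, for a log2 fold change of -0.23 (SE 0.46, adjusted p = 0.968). Here the replicates of both genotypes differed more than the genotypes did.

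Tapbp (chr17:33915899-33929292, plus strand) had 569 and 714 counts (105 and 116 CPM) in BcorΔE9-10 and 245 and 1626 counts (71.5 and 306 CPM) in BcorWT. The BcorWT libraries lay on either side of the BcorΔE9-10 libraries, and the log2 fold change was -0.77 (SE 0.59, adjusted p = 0.945). It was 0.63 without BcorWT replicate 2 and -1.47 without BcorWT replicate 1, where the adjusted p was 0.0215. Tapbp overlaps Zbtb22 on the same strand. Other members with a same-strand overlap include Irf9 (Rnf31), Ifi203 (Mndal), Rtp4 (Gm45338), Igtp (Irgm2) and Ifi47 (Olfr56), and their counts may be split.

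The replicates of a genotype differed, regardless of direction, by a median of 0.28 in BcorΔE9-10 and 0.52 in BcorWT over the 40 genes (log2 CPM with a prior count of 2), against 0.31 and 0.57 over all genes. BcorΔE9-10 replicate 1 was the lowest of the 4 libraries in 20 genes (50%), against 20.9% of all genes, among them the 3 OAS genes, Ifit2, Rsad2, Isg15, Bst2, H2-K1 and B2m. Replicate 2 exceeded replicate 1 of BcorΔE9-10 in 26 genes, with a median of 0.16 on the log2 scale against 0.00 (-0.0006) over all genes. BcorWT replicate 2 was the highest library in 15 genes (37.5%), against 34.5% of all genes, and its differences from replicate 1 ran from -1.59 in Ifi203 to 2.09 in Tapbp, with 21 of 40 genes higher. The low values of BcorΔE9-10 replicate 1 were thus spread over several roles, while the high values of BcorWT replicate 2 were largest in Bst2 (2.07) and Tapbp (2.09). These counts describe 1 pair of libraries in each genotype and were not tested.

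**Figure D4:**
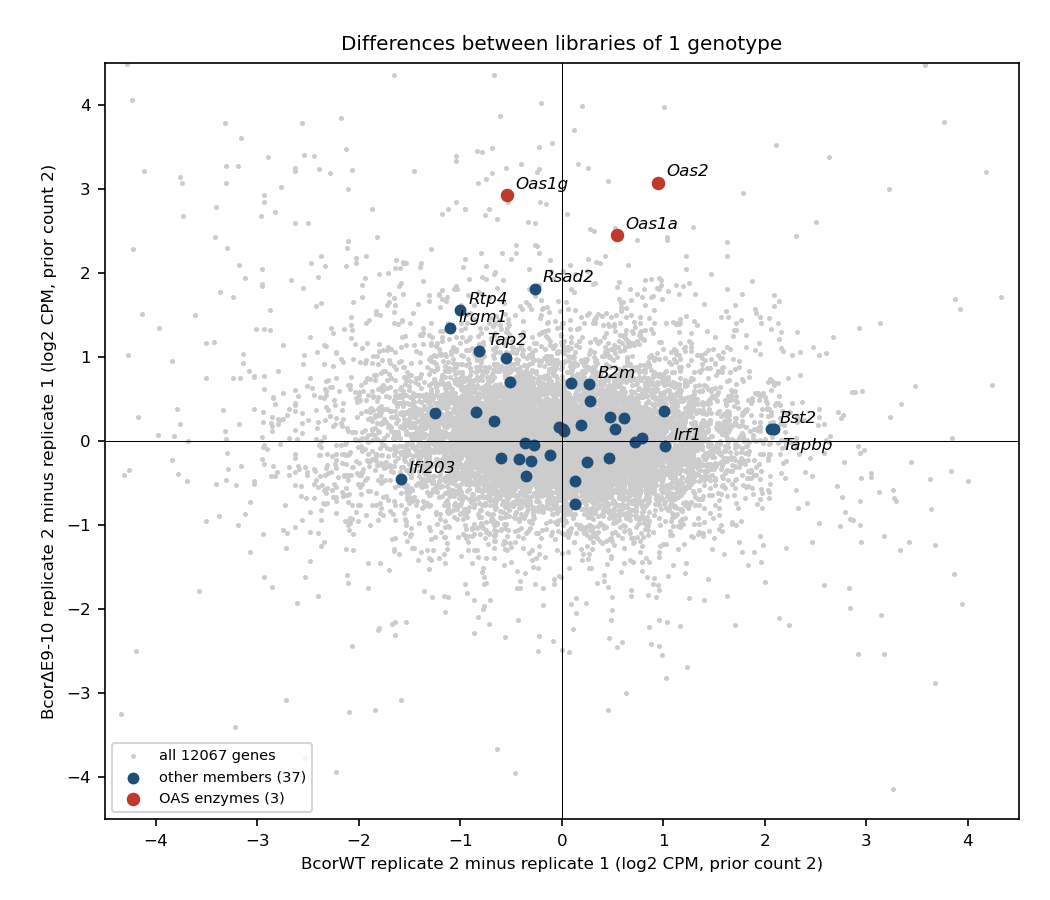
Difference between the replicates of each genotype for every gene (x axis, BcorWT replicate 2 minus replicate 1; y axis, BcorΔE9-10 replicate 2 minus replicate 1; both in log2 CPM with a prior count of 2; grey, all 12067 genes, of which 20 lie outside the axis limits of 4.5; blue, 37 of the genes described; red, the OAS enzymes). The OAS enzymes lie high at 2.45 to 3.08 on the y axis, where the prior count limits their difference, and Bst2 and Tapbp lie to the right at 2.07 and 2.09 on the x axis.

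Without BcorWT replicate 1, 2 of the 40 genes (5%), Bst2 and Tapbp, passed an adjusted p of 0.05 in edgeR, and 596 of 12063 genes (4.94%) did. The share of these genes was thus near the background. In that fit the lone BcorWT library, the one with low Gm42418, is assumed to vary as the BcorΔE9-10 libraries do.

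Genes of the pathway outside the 51 were read from lists of 140 genes, of which 98 were in the table. None passed an adjusted p of 0.05 in edgeR, 4 were lower (4.08%) and 0 higher at an unadjusted p under 0.05, near the background of 3.07% and 1.34%, and the median log2 fold change was -0.06, with 57 lower and 41 higher. None of the 10 listed interferon ligands was in the table. The 12 genes of receptor-proximal signalling had a median of 0.03, with 5 lower and 7 higher. Jak1 and Tyk2, the kinases of the type I receptor, had log2 fold changes of 0.11 (SE 0.31) and 0.00 (0.0042, SE 0.34).

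Socs1, the feedback inhibitor of the JAK kinases, had 48 and 80 counts (8.87 and 13.04 CPM) in BcorΔE9-10 and 44 and 271 counts (12.8 and 51.0 CPM) in BcorWT. Its log2 fold change was -1.55 (SE 0.61, adjusted p = 0.945) between groups that overlapped, and, as for Bst2, only BcorWT replicate 2 was high, without which it was -0.23. Of 15 genes of sensing and IRF signalling, 12 were in the table, with a median of -0.13 and none at an unadjusted p under 0.05. Of 76 other interferon-stimulated genes, 53 were in the table, with 31 lower and 22 higher and a median of -0.07. Ly6e, a membrane protein that limits virus entry, was at 88.7 and 79.2 CPM against 107 and 211 CPM (log2 fold change -0.92, SE 0.39, adjusted p = 0.945), and without BcorWT replicate 2 its log2 fold change was -0.35. Ly6a, which encodes Sca-1, is interferon-inducible but also the marker against which KL cells were gated, and its libraries held 0 and 20 counts in BcorΔE9-10 and 13 and 6 in BcorWT (log2 fold change -0.51, SE 1.31).

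Of 30 other genes of the MHC class I group, 24 were in the table, with 16 lower and 8 higher and a median of -0.06. The immunoproteasome subunits Psmb8 and Psmb9, which shape the peptides for class I, had log2 fold changes of 0.16 and 0.07 (SE 0.30 each). H2-Q7, a class Ib molecule, had 293 and 325 counts (54.15 and 53.0 CPM) in BcorΔE9-10 and 235 and 748 counts (68.6 and 141 CPM) in BcorWT, a log2 fold change of -0.97 (SE 0.40, adjusted p = 0.945), which was -0.36 without BcorWT replicate 2. H2-Q10, a secreted class I molecule, had 1 and 4 counts against 13 and 20, or 0.185 and 0.652 CPM against 3.80 and 3.76 CPM. Its log2 fold change of -3.07 (SE 0.87) had an adjusted p of 0.945. It was -2.49 without BcorΔE9-10 replicate 1 and -4.17 without BcorΔE9-10 replicate 2. Of the 75-base 3′ windows of H2-Q7 and of H2-Q10, 0 occur in another gene.

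Genes with an ISRE core in the promoter window were found in both directions. The 15 genes with a core had a median log2 fold change of -0.03, with 8 lower and 7 higher, and the 18 with a window but no core had a median of -0.16, with 11 lower and 7 higher. Among the 15 were genes without overlap in both directions, with Oas1a, Oas1g and Bst2 lower and Stat2, Ddx58 and Trim30a higher in BcorΔE9-10, shares close to the 17.1% and 16.8% of all genes.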

How the data were processed

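RNA was from sorted donor KL cells of 2 BcorΔE9-10 and 2 BcorWT samples. The authors trimmed 75-base single-end reads with cutadapt, aligned them to mm10 (GRCm38) with HISAT2 and assigned them to genes with featureCounts (Subread). The deposited values are raw counts per gene, except that 2 columns were deposited with a fractional value for Gm4430, which makes them expected counts, and these were rounded before testing. Molecular identifiers are not mentioned in the sources, and floors therefore concern counting error alone. How the table was filtered to 12067 genes is not given in the sources used here, and filterByExpr removed 0 of them.

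The counts were tested with edgeR 4.0.16 in R 4.3.3 (TMM, trended dispersion, quasi-likelihood F test, prior count 0.125, SE taken as the log2 fold change over the root of F), with Benjamini-Hochberg adjustment over all genes. The fits were also run on simulated counts, which is no check of the spread between these libraries, and no outcome is reported here. Alternatives used limma-voom (limma 3.58.1), DESeq2 1.42.0, another scaling, filter or prior count, Gm42418 left out, the replicate number as a block, and each library left out. Tables and plots used Python 3.11.15, pandas 2.3.3 and matplotlib 3.10.9. The exact permutation test of 2 against 2 libraries was not used, as it cannot pass.

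The members, the pathway and marker lists and the tests were chosen with earlier results of these data known. Full statistics are given for members with an unadjusted p under 0.05 and for 13 genes that define a role (Oas1a among both); other members are given by levels, and chosen after their values were seen are the statistics of Nlrc5, Ddx58, Dhx58, Oas2, Ifi35, Samhd1, Trim30a, Irgm1, Gbp7 and Tapbp. Pathway genes are named at an unadjusted p under 0.05, with Jak1, Tyk2, Psmb8, Psmb9, Ly6a and 1 gene not reported here fixed by name. Gene positions and 3′ windows (75 bases in the last 400 bases of coding transcripts) are from GENCODE on GRCm38, and promoters from RefSeq.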

Additional observations from a re-analysis of the deposited data

How the results depend on the processing

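No member passed an adjusted p of 0.05 under any alternative but the fit without BcorWT replicate 1. Over all genes the count was 2, and was 5 with at least 10 counts in every library, 4 with limma-voom, 43 with DESeq2, 14 with the replicate number as a block, and 6 to 596 with a library left out (6 without BcorΔE9-10 replicate 1, 34 without BcorΔE9-10 replicate 2, 596 without BcorWT replicate 1 and 30 without BcorWT replicate 2). Members with an adjusted p under 0.05 numbered 0 to 2 with a library left out. At an unadjusted p under 0.05 the number of lower members was 2, was 1 with at least 10 counts in every library, was 3 with DESeq2 and with the replicate block, which add Oas1g, was 2 with limma-voom, where Oas1g takes the place of Bst2, and ranged from 1 to 5 with a library left out. It was 4 without BcorΔE9-10 replicate 2 and 5 without BcorWT replicate 1, and was 1 without either of the other libraries. Higher members numbered 0 to 2 with a library left out, the 2 (Ddx58 and Trim30a) being without BcorWT replicate 1. Pathway genes at an unadjusted p under 0.05, in either direction, numbered 4, were 2 with the replicate block, 1 with limma-voom and 6 with DESeq2, and ranged from 0 (without BcorΔE9-10 replicate 1) to 19 (without BcorWT replicate 1). The median over members was -0.16, was -0.0067 over the 32 members with at least 10 counts in every library, and was -0.0099 without BcorΔE9-10 replicate 1, -0.2636 without BcorΔE9-10 replicate 2, -0.1941 without BcorWT replicate 1 and -0.0409 without BcorWT replicate 2. No genes were removed by the default filter, so that leaving it out changed nothing.

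Of 272 alternatives for 23 named genes, 248 kept the direction and the side of the threshold, and 20 reversed, 17 of them with a library left out. Tyk2, at 0.0042, became -0.0205 with the replicate block, -0.0198 with limma-voom and -0.0068 without Gm42418. With a library left out, log2 fold changes ranged from -0.311 to 0.4055 in Ifnar1, -0.0264 to 0.1375 in Ifnar2, -0.0026 to 0.2934 in Ifngr1, -0.9962 to 0.0698 in Irf7, -0.4731 to 0.2934 in Isg15, -0.4559 to 0.0131 in H2-D1, -0.2479 to 0.4248 in B2m, -0.2919 to 0.5075 in Tap1, -0.8609 to 0.2273 in Tap2, -0.0251 to 0.2381 in Jak1, -0.2954 to 0.257 in Tyk2 and -6.5079 to 0.5528 in Ly6a. Bst2, Socs1, Ly6e and H2-Q7 passed an adjusted p of 0.05 without BcorWT replicate 1, at -2.362, -2.2163, -1.3342 and -1.3975. Without BcorWT replicate 2, Bst2 was -0.27, Socs1 -0.23, Ly6e -0.35 and H2-Q7 -0.36. The causes were not tested.

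Same-numbered libraries did not deviate together (correlation -0.094 over 12067 genes), so that the replicate number was not taken as a pairing. Depth limits the 16 members with under 30 counts in at least 1 library, the OAS enzymes first among them.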
